A study of Homo sapiens with 4 samples.

Results

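Integrins are paired receptors, 1 alpha with 1 beta chain, that hold epithelial cells to laminin, collagen and other matrix proteins. Inside the cell their beta tails are bound by talins and kindlins, which switch the receptors on, and by a complex of the pseudokinase ILK with a PINCH protein (LIMS1 or LIMS2) and a parvin. Vinculin, alpha-actinins and tensins tie these plaques to actin, and paxillin, the kinase FAK (PTK2) and the adaptor BCAR1 carry their signals. In the gut epithelium such adhesions fix cells to the basement membrane, and the same receptors take part in the spread of tumour cells.

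A set of 36 genes of integrin chains and focal adhesion proteins was followed in 4 RNA libraries of HT-29, a human colorectal adenocarcinoma line. The members were chosen by gene symbol, and all 36 had 1 target among the 20322 targets measured. In every library the cells carried CRISPR/Cas9 targeting of IMP1 (IGF2BP1), an oncofetal RNA-binding protein, and are labelled as derived from a liver metastasis in a mouse. The 2 IMP1-OE libraries came from cells with a PiggyBac vector for FLAG-tagged IMP1 with a short UTR (PB*-FLAG-IMP1-short UTR), and the 2 null libraries from cells with the empty vector (PB*-empty). All were kept in DMEM-H with serum, antibiotics and puromycin. The design text gives n=2 lines per genotype and nothing used here tells clones from repeat cultures, so p-values measure only the spread between these libraries. In bulk RNA of this kind, fewer cells of a type and less RNA per cell cannot be told apart. The comparison asks which of these adhesion mRNAs differ in level once IMP1 is put back.

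Library totals were 10015212 and 10472121 counts in IMP1-OE and 10594813 and 9343429 counts in null. The targeted gene followed the labels, with 71 and 112 IGF2BP1 counts in IMP1-OE, against 37 and 16 in null (edgeR log2 fold change 1.69, SE 0.56, adjusted p = 0.453). ARSI, the target with the most counts, took 8.01% and 12.4% of the counts in IMP1-OE and 17.8% and 17.3% in null. The 11 epithelial markers summed to 26552 and 27315 CPM (counts scaled to library size) in IMP1-OE and 28752 and 21037 CPM in the null libraries, led by keratins, while the intestinal factors CDX1 and CDX2 had at most 3 counts in all libraries but null replicate 1, which had 9 and 47. The 2 null libraries were further apart than the 2 IMP1-OE libraries, with a chi-square per degree of freedom over genes of 20.1 in IMP1-OE and 58.4 in null.

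Levels of different genes are given as CPM per kilobase (kb), that is, scaled CPM divided by the length of the gene's single deposited transcript. On this scale the members ranged widely. ACTN4, which encodes a non-muscle alpha-actinin that bundles actin, averaged 661 CPM per kb over the 4 libraries and ranked 119 of all targets. FERMT2, the kindlin gene of mesenchymal cells, had no count in any library, and a count of 0 allows up to 3 counts, or 0.283 to 0.321 CPM at these depths.

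**Figure D1:**
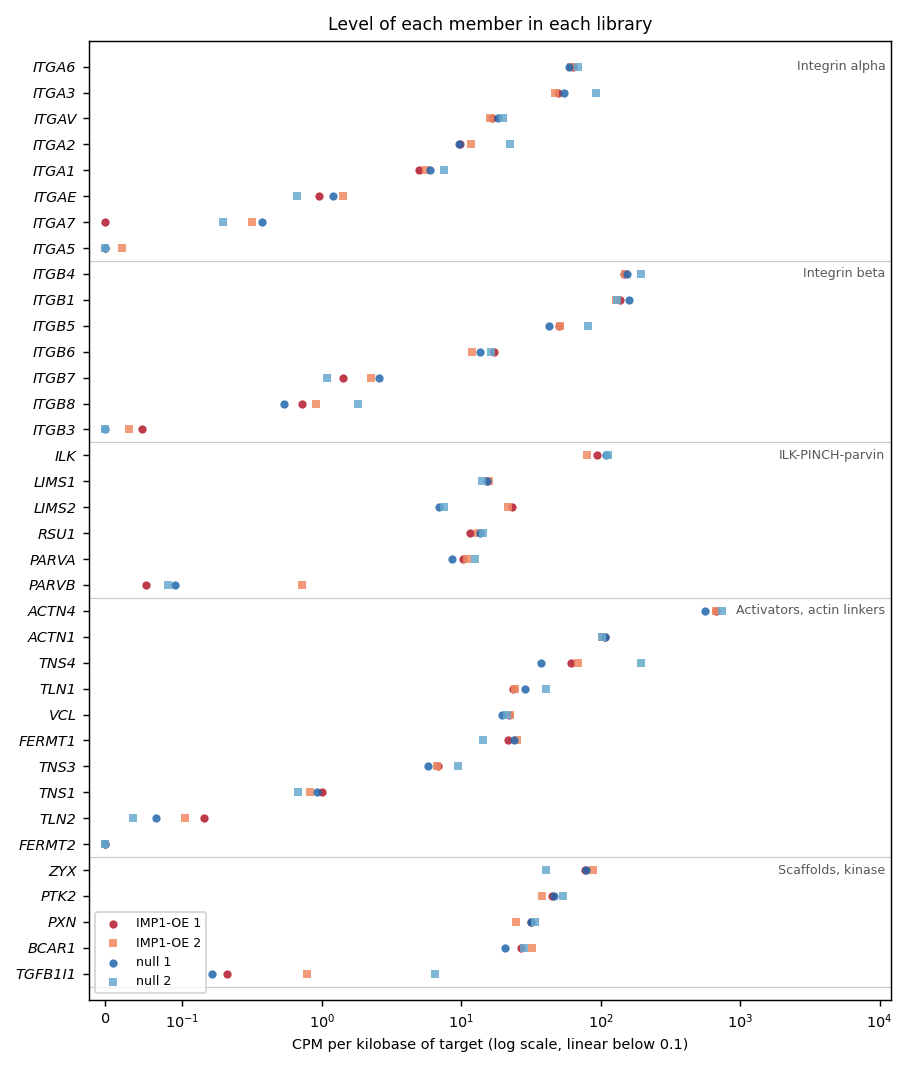
Level of each of the 36 members in CPM per kb (log axis, linear below 0.1), 1 point per library, with circles for replicate 1 and squares for replicate 2, ordered by role and mean level. Most members keep their place in all 4 libraries, LIMS2 is higher in both IMP1-OE libraries, and TNS4 and TGFB1I1 are high in null replicate 2.

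Of the 36 members, 32 passed edgeR's low-count filter. The other 4 were FERMT2, ITGA5 (0 and 1 counts in IMP1-OE, 0 and 0 in null), ITGB3 (3 and 2 counts in IMP1-OE, 0 and 0 in null) and PARVB. In edgeR's quasi-likelihood test, IMP1-OE against null, 0 of the 32 had an adjusted p under 0.05, as had 0 of the 12113 genes tested (0%). DESeq2 called 164 genes and limma-voom 1 gene on the same counts. DESeq2 called LIMS2 among the members (background 1.28%). Without the low-count filter edgeR called 22 genes (0.129%), LIMS2 among them, and with the replicate number as a block 15 genes (0.124%) and 0 members. The 1 limma-voom call (0.00826%) was no member. At an unadjusted edgeR p under 0.05 stood 2 members, LIMS2 (higher, background 4.34%) and TLN1 (lower, background 5.84%), against 10.2% of all genes tested. By direction, 12 of the 32 had a positive log2 fold change (IMP1-OE over null) against a background of 48.1%, and the median over the members was -0.15, beside -0.02 over all genes tested. Other fits of the same 32 gave 12 to 16 positive, with 15 under scaling by library totals and 16 without null replicate 2. The groups did not overlap for 12 members, a share below the 43.2% of all genes. These were 3 members higher in IMP1-OE (background 21.3%) and 9 lower (background 21.9%).

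**Figure D2:**
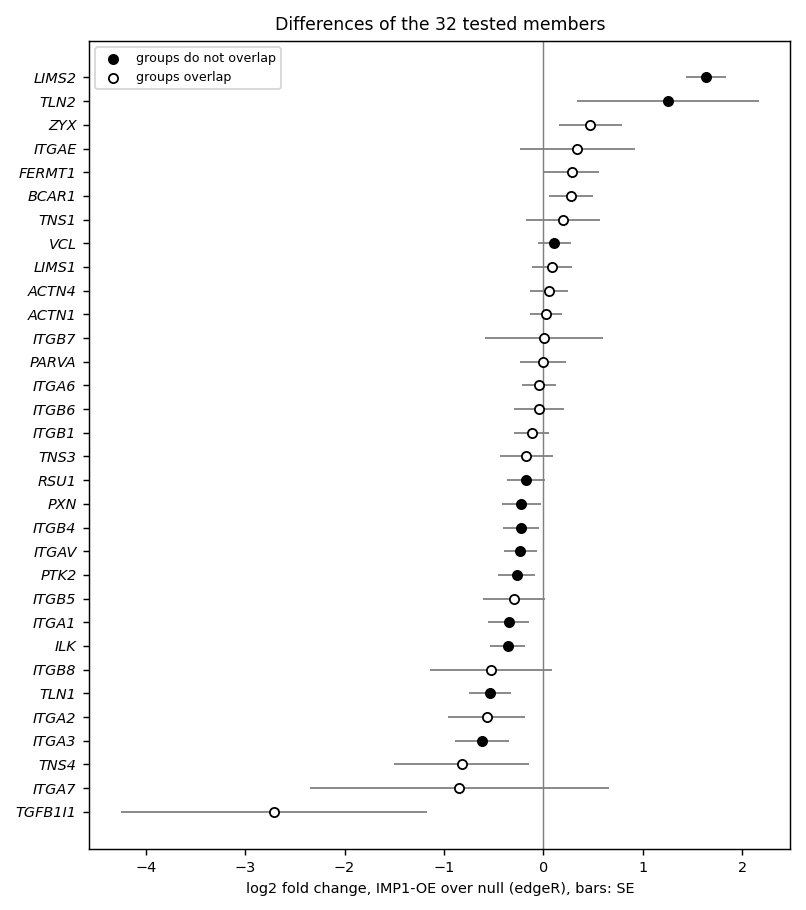
Log2 fold change, IMP1-OE over null, of the 32 tested members, with the SE of the edgeR fit as bars and filled points where the 2 libraries of one group lie outside those of the other. LIMS2 stands at 1.63 with an SE of 0.20, and the wide bars of TLN2, ITGA7 and TGFB1I1 belong to genes with few counts or a large gap between libraries.

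LIMS2, the gene of PINCH2, a protein of LIM domains that binds ILK, was the member with the smallest p. It had 583 and 543 counts in IMP1-OE, against 168 and 165 in null. The IMP1-OE libraries averaged 53.5 ± 2.73 CPM and the null libraries 17.2 ± 1.15 CPM (mean ± SD, n = 2 each). The values within each group lay close together and the groups were far apart, a 3.10-fold difference (log2 fold change 1.63, SE 0.20). The unadjusted p was 1.90e-04, the 8th smallest of the 12113 genes, and the edgeR adjusted p was 0.255, so LIMS2 did not pass over all genes. In the authors' deposited table LIMS2 has a log2 fold change of 1.53 and an adjusted p of 1.72e-05, which the DESeq2 run here repeats. LIMS2 is the only one of the 33 members with an adjusted p there that passes 0.05, where 1.28% of all genes do. With 1 library left out at a time its log2 fold change stayed between 1.57 and 1.70, and its edgeR adjusted p was 0.999 without IMP1-OE replicate 1, 0.747 without IMP1-OE replicate 2, 0.0164 without null replicate 1 and 0.0463 without null replicate 2.

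Its paralog LIMS1, which encodes PINCH1 and can take the same place beside ILK, had 304 and 314 counts in IMP1-OE and 296 and 242 in null. The groups overlapped in CPM, and the log2 fold change was 0.08 (SE 0.20, edgeR adjusted p = 0.919). Per length the order of the pair differed between the groups. LIMS2 stood at 23.2 and 21.6 CPM per kb in IMP1-OE, above LIMS1 at 15.4 and 15.9. In null, LIMS2 stood at 6.88 and 7.56 CPM per kb, below LIMS1 at 15.4 and 14.1. LIMS2 thus made up 60.1% and 57.6% of the summed PINCH level in IMP1-OE, against 30.9% and 34.9% in null, and the sum was 38.7 and 37.5 CPM per kb in IMP1-OE and 22.3 and 21.7 in null. The ratio of LIMS2 to LIMS1 did not overlap between the groups. Its exact two-sided permutation p was 0.333, the smallest that 2 libraries against 2 can give. This ratio contains LIMS2 and is not separate support for the LIMS2 difference. LIMS3 and LIMS4, near-identical copies of LIMS1, had at most 2 counts in a library, so how estimated counts were split between these copies and LIMS1 cannot be seen.

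**Figure D3:**
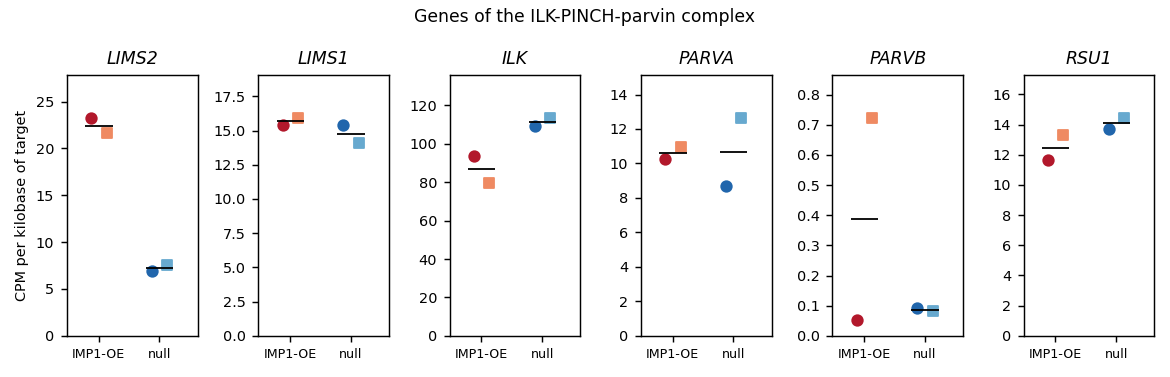
Level of the 6 genes of the ILK-PINCH-parvin complex in CPM per kb, 1 point per library (circle replicate 1, square replicate 2), with a line at each group's mean and a separate axis from 0 for each gene. The points of LIMS2 lie at 23.2 and 21.6 in IMP1-OE and at 6.88 and 7.56 in null, while those of LIMS1 overlap.

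GPR17, a receptor gene that RefSeq places inside the LIMS2 locus, had 26 and 24 counts in IMP1-OE, against 0 and 3 in null (edgeR adjusted p = 0.456). Overlap here is by the span of the genes, and whether the counted transcripts share sequence was not examined. The sources used here do not state whether strand was used in counting, so fragments of any shared sequence cannot be told apart. Another 9 members overlap a target in RefSeq (ACTN4, ILK, ITGA1, ITGA7, ITGAE, ITGB4, ITGB7, VCL and ZYX), and the same limit holds for them. Of the 6 nearest neighbours of LIMS2, 3 on each side and without GPR17, 5 were tested, 2 with a positive and 3 with a negative log2 fold change. Of these, 0 passed the edgeR adjusted threshold, as no gene did, and 1 had an unadjusted p under 0.05, MYO7B. WDR33, on one side, was at 72.9 and 74.8 CPM in IMP1-OE, against 86.4 and 67.2 CPM in the null libraries. MYO7B, a myosin gene of the brush border, on the other, was at 2.19 and 0.665 CPM in IMP1-OE, against 8.02 and 5.36 CPM in the null libraries. IWS1, beyond MYO7B, was at 75.8 and 72.3 CPM in IMP1-OE, against 75.4 and 50.2 CPM in the null libraries. POLR2D, beyond WDR33, was higher in IMP1-OE without overlap, at 14.6 and 21.5 CPM, against 14.3 and 12.6 CPM in the null libraries. PROC, beyond IWS1, was at 1.62 and 1.71 CPM in IMP1-OE, against 3.91 and 1.09 CPM in the null libraries. GPR17 and these neighbours were chosen after the value of LIMS2 was seen. Markers of other cell types were read beside LIMS2. The 6 endothelial markers summed to 4.76 and 4.75 CPM in IMP1-OE, against 4.21 and 3.39 CPM in null, with KDR at 0 throughout. The 8 fibroblast markers summed to 6.28 and 2.47 CPM in IMP1-OE, against 13.1 and 2.52 CPM in null, with PDGFRA at 0 throughout. The 7 leukocyte markers summed to 1912 and 1758 CPM in IMP1-OE, against 2834 and 1447 CPM in null, nearly all of it LYZ, with CD3E at 0 throughout and PTPRC at 0 in 3 libraries. The 6 hepatocyte markers summed to 689 and 732 CPM in IMP1-OE, against 441 and 228 CPM in null, nearly all of it SERPINA1, with ALB, APOA1 and CYP3A4 at 0 throughout.

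Like LIMS2 itself, its partners in the complex did not pass the edgeR test, which no gene passed. ILK, the scaffold that binds PINCH and parvin, was the highest of the 6 at 93.6 and 79.7 CPM per kb in IMP1-OE, against 109 and 113 in null. It was lower in both IMP1-OE libraries (log2 fold change -0.36, SE 0.17, edgeR adjusted p = 0.536). RSU1, a leucine-rich repeat protein that joins the complex through PINCH1, was at 11.6 and 13.3 CPM per kb in IMP1-OE and 13.7 and 14.4 in null, without overlap but close together. PARVA, the broadly expressed parvin, was at 10.3 and 10.9 CPM per kb in IMP1-OE, inside the span of 8.67 and 12.6 in null. PARVB, its paralog, had 3 and 41 counts in IMP1-OE and 5 and 4 in null, so its higher mean in IMP1-OE came from 1 library. The ratio of both PINCH genes together to ILK was 0.413 and 0.471 in IMP1-OE and 0.205 and 0.191 in null. The groups did not overlap (exact two-sided permutation p = 0.333, the smallest possible). This ratio contains LIMS2, so it restates the LIMS2 difference in part and is not separate support.

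Among the integrin alpha chains, the laminin receptor chains ITGA6 and ITGA3 held most of the level. ITGA6 was at 63.8 and 61.1 CPM per kb in IMP1-OE and 59.4 and 69.2 in null, and the groups overlapped. ITGA3 was at 49.3 and 46.9 CPM per kb in IMP1-OE, against 54.5 and 93.1 in null (log2 fold change -0.62, SE 0.27, edgeR adjusted p = 0.510). The lower level in IMP1-OE was larger against null replicate 2 than against null replicate 1, and the log2 fold change was -0.18 without null replicate 2. ITGA2, the collagen receptor chain, was at 9.88 and 11.7 CPM per kb in IMP1-OE, beside 9.69 in null replicate 1 and 22.3 in null replicate 2. Its log2 fold change changed sign without null replicate 2. ITGA1, another collagen receptor chain, was at 4.98 and 5.62 CPM per kb in IMP1-OE and 5.98 and 7.55 in null. ITGAV, the shared partner of several beta chains, was at 16.5 and 16.0 CPM per kb in IMP1-OE and 18.3 and 20.1 in null. Both were lower in IMP1-OE without overlap, by small steps that did not pass (edgeR adjusted p 0.600 and 0.667). ITGAE, the alpha chain that pairs with ITGB7 on T cells of the gut epithelium, was at 0.951 and 1.42 CPM per kb in IMP1-OE and 1.21 and 0.662 in null. ITGA7, a laminin receptor chain of muscle, had 0 and 13 counts in IMP1-OE and 15 and 7 in null. ITGA5, a fibronectin receptor chain, was all but absent, with 1 count over the 4 libraries. In all, 1 of the 7 tested alpha chains had a positive log2 fold change, against a background of 48.1%, and 0 passed (edgeR). Their median was -0.35, beside -0.02 over all genes tested. ITGA6 and ITGAE also changed sign without null replicate 2, and ITGA7 without IMP1-OE replicate 1.

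Among the beta chains, ITGB4, the partner of ITGA6 in hemidesmosomes, was highest, at 148 and 151 CPM per kb in IMP1-OE, against 155 and 194 in null (log2 fold change -0.22, SE 0.18, edgeR adjusted p = 0.708). ITGB1, the partner of most alpha chains here, followed at 139 and 129 CPM per kb in IMP1-OE and 159 and 132 in null. The 2 genes changed places between null libraries, so their order is not resolved. ITGB5 was at 50.5 and 50.8 CPM per kb in IMP1-OE, between 42.9 in null replicate 1 and 81.8 in null replicate 2. ITGB6, an epithelial partner of ITGAV that activates latent TGF-beta, was at 17.1 and 11.9 CPM per kb in IMP1-OE and 13.6 and 16.3 in null. ITGB8, which also pairs with ITGAV, was at 0.721 and 0.911 CPM per kb in IMP1-OE and 0.534 and 1.83 in null. ITGB7 was at 1.42 and 2.27 CPM per kb in IMP1-OE, inside the span of 2.58 and 1.09 in null. Of the 6 tested beta chains 1 had a positive log2 fold change, of 0.01 (ITGB7), against a background of 48.1%, and 0 passed in edgeR. ITGB5, ITGB6, ITGB7 and ITGB8 changed sign without null replicate 2, and ITGB1 without null replicate 1.

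Summed over genes, the beta chains stood at 356 and 346 CPM per kb in IMP1-OE and 373 and 427 in null, and the alpha chains at 146 and 143 in IMP1-OE and 149 and 213 in null. The ratio of beta to alpha chains was 2.45 and 2.42 in IMP1-OE and 2.50 and 2.00 in null, which overlap. ITGB4 exceeded ITGA6 by 2.31 and 2.47 times in IMP1-OE and by 2.60 and 2.80 times in null. These ratios did not overlap, nor did those of ITGA3 to ITGA6 (exact two-sided permutation p = 0.333 for each, the smallest possible). The other ratios taken, PARVA to ILK, RSU1 to ILK, ACTN4 to ACTN1 and ITGB5 to ITGB6, overlapped between the groups. Of the alpha level, ITGA6 made up 43.9% and 42.7% in IMP1-OE, against 39.8% and 32.5% in null, and ITGA3 33.9% and 32.8% in IMP1-OE, against 36.5% and 43.7% in null.

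Of the talins, TLN1, the main link between integrin tails and actin, was at 202 and 210 CPM in IMP1-OE, against 249 and 350 CPM in null. It was lower in both IMP1-OE libraries, with a log2 fold change of -0.54 (SE 0.21, unadjusted p = 0.0450, edgeR adjusted p = 0.484). Leaving out null replicate 2 gave -0.27, and leaving out null replicate 1 gave -0.76 with an edgeR adjusted p of 0.0319. TLN2, its paralog, was scarce, with 18 and 13 counts in IMP1-OE and 8 and 4 in null. FERMT1, the kindlin of epithelia, was at 21.5 and 25.2 CPM per kb in IMP1-OE and 24.0 and 14.4 in null, so the only kindlin gene with counts among the members overlapped between groups.

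No actin linker passed the edgeR test, as no gene did. ACTN4 was at 677 and 670 CPM per kb in IMP1-OE, inside the span of 556 and 740 in null, and ACTN1 at 108 and 105 in IMP1-OE and 107 and 102 in null. VCL, the gene of vinculin, was at 22.0 and 22.4 CPM per kb in IMP1-OE and 19.7 and 21.4 in null, higher in IMP1-OE without overlap by a log2 fold change of 0.11 (SE 0.17, edgeR adjusted p = 0.863). TNS4, a short tensin without the actin-binding part of its relatives, was at 61.7 and 68.8 CPM per kb in IMP1-OE. In null it was at 37.4 in replicate 1 and 193 in replicate 2, one below and one above both IMP1-OE libraries. TNS3 was at 6.83 and 6.67 CPM per kb in IMP1-OE and 5.78 and 9.44 in null, and TNS1 at 1.01 and 0.830 in IMP1-OE and 0.920 and 0.679 in null.

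Among the scaffolds, ZYX, the gene of zyxin, was highest, at 77.1 and 87.7 CPM per kb in IMP1-OE, against 78.1 in null replicate 1 and 40.5 in null replicate 2. Null replicate 1 thus lay within the IMP1-OE libraries and null replicate 2 far below. PTK2 was at 44.8 and 38.2 CPM per kb in IMP1-OE and 46.2 and 53.9 in null, and PXN, the gene of paxillin, at 31.5 and 24.6 in IMP1-OE and 31.5 and 33.9 in null. Both were lower in IMP1-OE without overlap, PXN by a margin under the rounding of these values, and neither passed (edgeR adjusted p 0.653 and 0.742). BCAR1 was at 26.9 and 32.0 CPM per kb in IMP1-OE and 20.5 and 28.2 in null. TGFB1I1, a paxillin relative of smooth muscle and stroma, had 4 and 15 counts in IMP1-OE, 3 in null replicate 1 and 107 in null replicate 2. Its log2 fold change of -2.71 became 1.58 without null replicate 2.

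The null libraries differed widely, among the members as over all genes tested. The 2 null libraries were further apart than the group means (log2 of CPM + 0.5) for 22 of the 32 tested members (68.8%), near the background of 59.8%. The median gap between the libraries of a group was 0.18 log2 units in IMP1-OE and 0.43 in null, beside 0.23 and 0.38 over all genes tested. The gap was larger between the null than between the IMP1-OE libraries for 26 of the 32 members, against 64.6% of all genes tested. Null replicate 2 was the highest of the 4 libraries for 18 of the 32 members, a share above the 32.5% of all genes. It was the lowest for 8 of the 32, beside 31.7% of all genes. No share over all genes was computed for gaps of over 1 log2 unit. Such a gap was found for 2 members in IMP1-OE and for 5 in null. TGFB1I1, TNS4, ITGB8 and ITGA2 were higher in null replicate 2 and ITGB7 was lower.

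**Figure D4:**
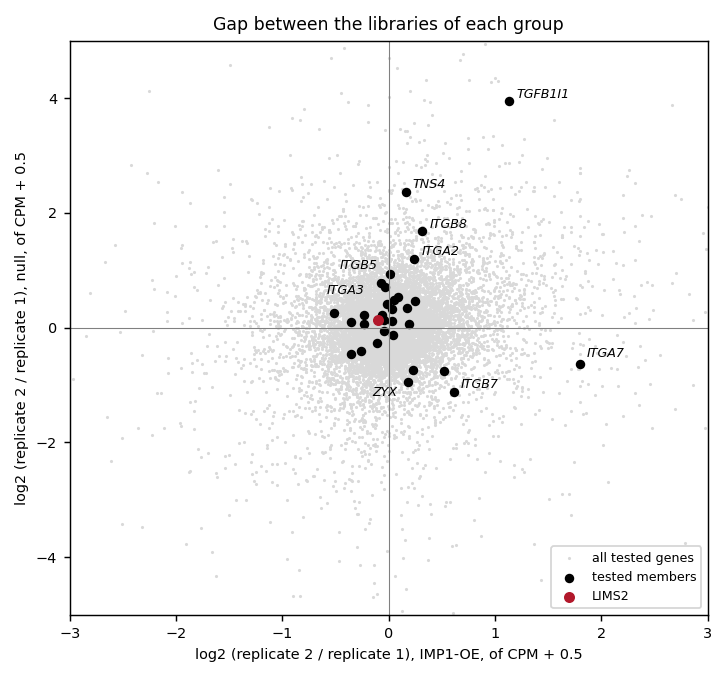
Gap between the 2 libraries of each group, as log2 of replicate 2 over replicate 1 after adding 0.5 CPM, in IMP1-OE (horizontal) and null (vertical), for the 32 tested members over all tested genes in grey (41 genes lie outside the axes). LIMS2 lies near the centre, while TGFB1I1, TNS4, ITGB8 and ITGA2 spread along the null axis.

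Without null replicate 1, which leaves null replicate 2 alone in its group and assumes that it varies like the IMP1-OE libraries, edgeR called 7 of the 32 members, beside a background of 6.46%. LIMS2 and ZYX were higher in IMP1-OE (background 2.78%), and ITGA2, ITGA3, ITGB5, TLN1 and TNS4 lower (background 3.68%). Without null replicate 2, edgeR called LIMS2 alone (background 0.396%), and the log2 fold changes of ITGA2, ITGB5 and TNS4 were then 0.15, 0.24 and 0.80, against -0.57, -0.30 and -0.82 with all libraries. LIMS2 was the one member called in both cases.

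The adhesion genes outside the set, 120 on 4 lists, were read beside it. Of the 87 that were tested, 41 had a positive log2 fold change and 0 passed in edgeR. In 13 of them the unadjusted p was under 0.05, of which 4 were higher and 9 lower, beside the 10.2% of all genes.

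Of the matrix ligands, 6 of 16 tested had a positive log2 fold change, with a median of -0.22. LAMB2, a laminin beta chain, was at 32.8 and 36.7 CPM in IMP1-OE, against 52.7 and 80.1 CPM in null (1.91-fold lower, edgeR adjusted p = 0.435). CCN2, a matricellular protein that integrins bind, was at 3.43 and 2.85 CPM in IMP1-OE, against 14.3 and 5.14 CPM in null. FN1 and VTN, the genes of fibronectin and vitronectin, were below the low-count filter, as were ITGA5 and ITGB3, some of their receptor chains. Other chains of such receptors, ITGAV, ITGB1, ITGB5 and ITGB6, passed the filter.

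Of the kinases, adaptors and GTPase regulators, 17 of 33 tested had a positive log2 fold change, with a median of 0.03. FYN, a kinase of the SRC family that acts at adhesions, was at 54.6 and 42.0 CPM in IMP1-OE, against 17.7 and 8.54 CPM in null. This was a 3.67-fold difference (log2 fold change 1.88, SE 0.38) with an edgeR adjusted p of 0.408, and FYN has an adjusted p of 0.00304 in the authors' deposited table. PTK2B, the FAK relative PYK2, was at 4.00 and 2.09 CPM in IMP1-OE, against 7.24 and 17.6 CPM in null (edgeR adjusted p = 0.447). RAP1A, a GTPase upstream of talin, was at 34.5 and 38.1 CPM in IMP1-OE, against 45.4 and 56.7 CPM in the null libraries.

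The list of other plaque and stress fibre proteins held 9 of the 13 genes with an unadjusted p under 0.05, 3 higher and 6 lower of 37 tested, with a median log2 fold change of -0.10. Over all genes tested, 10.2% had an unadjusted p under 0.05, 4.34% higher and 5.84% lower in IMP1-OE, and the median was -0.02. FLNA, the gene of the actin crosslinker filamin A, was at 747 and 883 CPM in IMP1-OE, against 551 and 440 CPM in null (1.64-fold, edgeR adjusted p = 0.435). AJUBA, a LIM protein of adhesions and junctions, was at 10.6 and 13.9 CPM in IMP1-OE, against 27.1 and 26.2 CPM in null (2.18-fold lower, edgeR adjusted p = 0.433). PDLIM1, a LIM protein that binds alpha-actinin, was at 71.9 and 85.1 CPM in IMP1-OE, against 120 and 165 CPM in null, and FBLIM1, which joins filamin to kindlin, at 7.61 and 9.22 CPM in IMP1-OE, against 16.4 and 17.5 CPM in null. ACTB, whose mRNA is the classical cargo of IMP1, was at 8456 and 8112 CPM in IMP1-OE, against 8729 and 6473 CPM in the null libraries, with overlap, and is named for that role and not for its value. Of the 11 integrin chains outside the set 1 was tested, ITGAM, at 1.62 and 1.62 CPM in IMP1-OE, against 0.685 and 0.219 CPM in the null libraries.

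**Figure D5:**
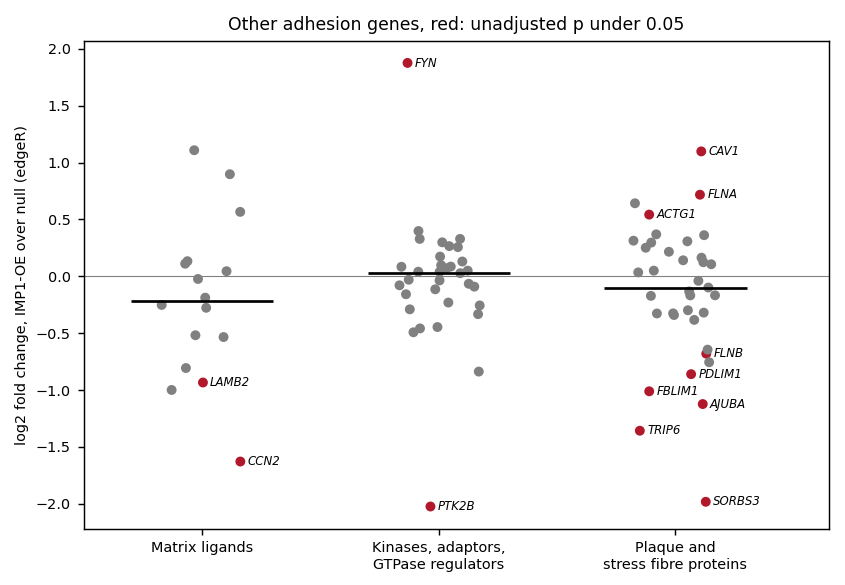
Log2 fold change, IMP1-OE over null (edgeR), of the tested genes of 3 adhesion lists outside the set, with a bar at each list's median and red points at an unadjusted p under 0.05. FYN stands highest at 1.88, the medians lie at -0.22, 0.03 and -0.10, and no gene shown passes the adjusted threshold.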

How the data were processed

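RNA of cleared lysates was broken into 18 to 50 nt pieces, given linkers with molecular identifiers and depleted of ribosomal RNA, per the labels' protocols. The sources used here do not say if identifiers served to collapse PCR copies, and floors cover counting error only. The deposited values are kallisto's estimated counts per the file headers, 1 transcript per gene, all whole numbers (tolerance 1e-09). The submitters' processing notes list, with no roles, fastp 0.21, cutadapt 3.5, kallisto 0.46.2, HISAT2 2.1.0 and DESeq. Build and annotation were not given in the sources used here. Short fragments can match several targets, so counts of near-identical paralogs are uncertain. Log2 fold changes and p-values of the authors' own comparison were deposited too, and those log2 values can be far smaller than unshrunken ones. Another 2 sample names in the count table match no label and are not analysed here.

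Tests ran in R 4.3.3 with edgeR 4.0.16, using TMM scaling, default low-count filter, quasi-likelihood F test, Benjamini-Hochberg adjustment over 12113 genes, threshold 0.05, no covariate. CPM values are TMM-scaled. The SE is the log2 fold change divided by the root of F. Replicate libraries differed by more than counting noise, so none were merged. Alternatives were DESeq2 1.42.0, limma 3.58.1 (voom), other scalings, no filter, ARSI left out, the replicate number as a block, and each library left out in turn on the same genes. The steps were tested on simulated data. Overlapping and neighbouring genes were taken from RefSeq (GRCh38.p14) by name, with all 36 members matched, and 10 overlap another target.

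The members and gene lists were chosen with earlier results of these data known. LIMS2 and members with an unadjusted edgeR p or a deposited adjusted p under 0.05 were to be given in full, other members by level, and of each other list up to 4 genes with the smallest p.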

Additional observations from a re-analysis of the deposited data

How the results depend on the processing

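LIMS2 kept its direction in all 12 alternatives, with a log2 fold change of 1.57 to 1.71. It passed the threshold without the low-count filter (1.63, adjusted p = 0.0431), in DESeq2 (1.64, adjusted p = 1.72e-05) and without either null library. With 1 library left out, LIMS2 ran from 1.57 to 1.70, genes called from 0 to 783, genes with an unadjusted p under 0.05 from 366 to 3015, members called from 0 to 7, members with an unadjusted p under 0.05 from 1 to 13, and the members' median log2 fold change from -0.23 to 0.0091. Without the filter 22 genes (0.129%) and 1 member (LIMS2) were called and the median was -0.048. DESeq2 called 164 genes (1.28%) and 1 member, with a median of -0.040. This run gave the adjusted p of LIMS2 that the authors' deposited table holds, so it is not separate support. Limma-voom called 1 gene. With library totals as the scaling, 1 of the 32 members had an unadjusted edgeR p under 0.05, beside 1287 of the 12113 genes tested. With the replicate block edgeR called 15 genes and 0 members; the 2 libraries with the same number share only a number, and their deviations correlated at 0.12. The cause of these shifts was not tested. Over the 12 alternatives the sign held for 15 of the 32 tested members and changed for 17, of which 14 changed it without null replicate 2. With 2 libraries a group and few counts, differences in TLN2, ITGA7 and PARVB were not resolved at this depth.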
